A study of Sus scrofa with 18 samples.

Results

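CYP26A1 is the cytochrome P450 that breaks down all-trans retinoic acid (ATRA), and it was followed here over 12 h of ATRA treatment in LLC-PK1 cells. All probe sets annotated to the symbol CYP26A1 were taken. There was 1 such probe set (15227675, Entrez gene 100124374) among 27558 on the array, and no other probe set carried the same values. LLC-PK1 is an established epithelial line from pig kidney with proximal tubule features, recorded in the labels as male and of the Hampshire breed. The cells were grown past confluence, ATRA was added, and total RNA was taken at 0, 0.5, 1, 4, 8 and 12 h, with 3 biological replicates per time and 18 arrays in all. Every group is thus the same line in the same post-confluent state, and the groups differ in hours with ATRA. The dose and the vehicle are not given in the sources used here. The 0 h arrays were the control for all later times, so time in culture and treatment cannot be told apart. RNA was measured over whole cultures, so a change in the number of cells with the transcript and a change in transcript per cell cannot be told apart either.

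ATRA acts by binding the nuclear retinoic acid receptors, RARs, which pair with retinoid X receptors, RXRs, on DNA and switch on target genes. CYP26A1 is a classical target of these receptors in many tissues. Its product sits in the endoplasmic reticulum, takes electrons from cytochrome P450 reductase and oxidises retinoic acid to more polar products, so the gene is part of a negative feedback loop that limits exposure to the ligand. Its relatives, CYP26B1 and CYP26C1, act on the same substrate. Neither had a probe set under its symbol, and they were not analysed here.

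The deposited values are log2 signals, so a difference of 1 is a doubling. Array medians ran from 5.59 to 5.67 and upper quartiles from 7.79 to 7.86. Of the marker genes chosen, 4 of 4 measured kidney epithelial genes and 9 of 9 proximal tubule genes were above the highest array median at 0 h, against 0 of 4 endothelial and 1 of 4 leukocyte genes. Fibroblast genes were above it for 3 of 6. None of the endothelial, leukocyte or hepatocyte markers passed the test in limma at any time, and at an unadjusted p under 0.05 no more than 1 of 4 did at any time. Fibroblast genes gave 1 call in all, a rise at 4 h (16.7% called, 12.9% over all probe sets). Of 9 proximal tubule genes 4 were lower at 4 h (44.4% called, 12.9% over all probe sets), 4 lower and 1 higher at 8 h (55.6%, against 6.10%) and 2 lower and 1 higher at 12 h (33.3%, against 2.64%). Their summed linear signal went from 8980 to 9710 at 0 h to 7210 to 7930 at 12 h. None was called before 4 h. Of 4 epithelial genes 2 were higher at 4 h, 1 at 8 h and 2 at 12 h (50%, 25% and 50% called), with summed signals of 8180 to 9210 at 0 h and 11100 to 12600 at 12 h. Their part in the later changes of CYP26A1 was not tested.

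CYP26A1 was readily measured before treatment and its mean signal was higher at each longer exposure. At 0 h the 3 arrays read 8.42, 8.42 and 8.84, with a mean of 8.56 ± 0.24 (SD, n = 3). At 0.5 h they read 9.12, 8.93 and 9.22, a mean of 9.09 ± 0.15. The 2 groups did not overlap, but the lowest 0.5 h array lay only 0.091 above the highest 0 h array.

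At 1 h the arrays read 9.94, 10.17 and 10.44, with a mean of 10.18 ± 0.25. Every 1 h array lay above every earlier array, with a gap of 0.72 to the highest at 0.5 h. All later values lay above all earlier ones for 5.98% of probe sets from 0 to 1 h and for 7.10% from 0.5 to 1 h. At 4 h the values were 10.33, 10.20 and 10.52 (mean 10.35 ± 0.16), and at 8 h they were 10.46, 10.65 and 10.88 (mean 10.67 ± 0.21). At 12 h they were 10.69, 10.93 and 10.83, with a mean of 10.82 ± 0.12. The 4 h arrays overlapped with those of 1 h and of 8 h, and the 8 h arrays overlapped with those of 12 h. The 12 h arrays were all above the 4 h arrays, as they were for 10.6% of probe sets. Against 0 h, the share of probe sets with such a gap was 13.8% for 4 h and 12.1% for 12 h.

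**Figure D1:**
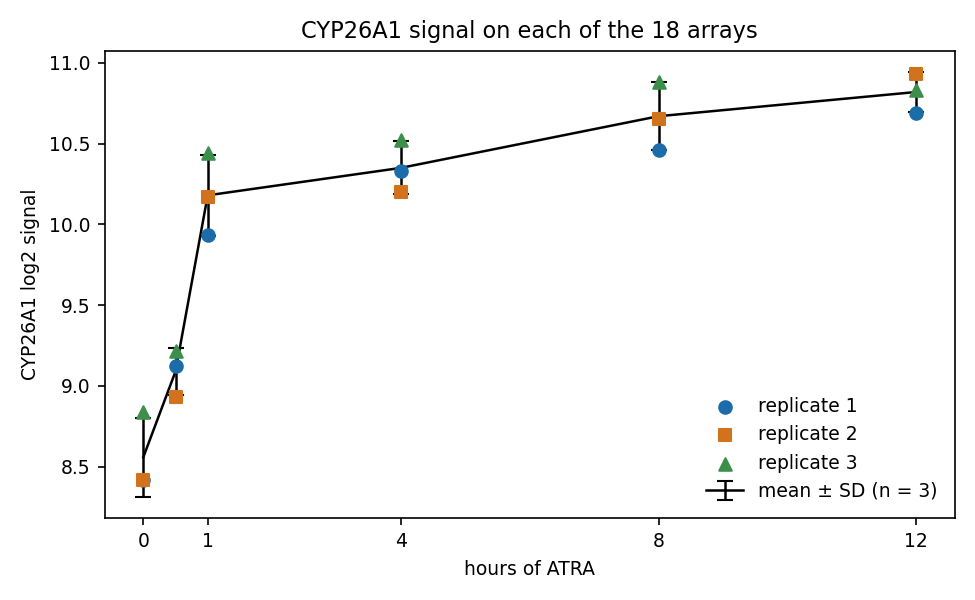
CYP26A1 log2 signal (y axis) against hours of ATRA (x axis) on the 18 arrays. Symbols are the 3 replicates, and the line joins the means with SD bars (n = 3); the mean goes from 8.56 at 0 h to 10.18 at 1 h and 10.82 at 12 h.

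Within a time, the replicates kept much the same order. The array of replicate 3 was the highest of the 3 at 5 of 6 times and lay on average 0.18 above the mean of its time, while replicate 1 was the lowest at 4 of 6 times and lay 0.12 below it (mean deviation -0.12). The exception for replicate 3 was 12 h, where replicate 2 was highest. Taken against the 0 h array of the same number, the 12 h rise was 2.27, 2.52 and 1.99 on the log2 scale in replicates 1, 2 and 3.

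The comparisons with 0 h asked how early and how far the degrading enzyme's transcript responded. CYP26A1 rose from 1 h onward and stayed high to the end of the course. It was 3.08-fold higher at 1 h (log2 difference 1.62 ± 0.16 SE, adjusted p = 2.89e-05 in limma) and 3.47-fold higher by 4 h (adjusted p = 8.2e-06). By 8 h it had reached 4.32-fold (adjusted p = 5.31e-06) and by 12 h 4.78-fold (2.26 ± 0.16, 95% interval 1.93 to 2.59, adjusted p = 3e-06). For background, limma called 0.689% of probe sets higher at 1 h, 6.31% by 4 h, 3.23% by 8 h and 1.13% by 12 h. The corresponding shares called lower were 6.63% for 4 h, 2.87% for 8 h and 1.51% for 12 h. The moderated F test over all times gave an adjusted p of 1.32e-06, rank 12 of 27558 probe sets by F, in a test that called 15.7% of them.

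At 0.5 h the difference was 0.53 ± 0.16 on the log2 scale (1.45-fold, 95% interval 0.20 to 0.86). It did not pass, with an adjusted p of 0.421 in limma and an unadjusted p of 0.00364. In this comparison 0.232% of probe sets were called, 0.196% as higher, and the 3 later values lay above the 3 values at 0 h for 5.14% of probe sets. The adjusted p stayed above the threshold in all 6 fits that left out 1 of the compared arrays (0.209 to 1). The 4 later calls were kept in all such fits, with log2 differences of 1.5 to 1.76 at 1 h and 2.19 to 2.40 at 12 h.

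The step with the highest mean slope was that between 0.5 and 1 h, which held 48.4% of the 12 h change on the log2 scale. In that interval the signal went up by 1.09 ± 0.16 on the log2 scale (2.13-fold, adjusted p = 0.00553 in limma), a step in which 0.559% of probe sets were called, 0.515% as higher. When only the 6 arrays of 0.5 and 1 h were fitted, this step had an adjusted p of 0.0586 and did not pass. Against 0.5 h the later times also passed, with log2 differences of 1.26 for 4 h, 1.58 for 8 h and 1.73 for 12 h, in comparisons that called 13.3%, 7.79% and 3.12% of probe sets. The mean slope was 1.06 ± 0.31 log2 units per hour from 0 to 0.5 h and 2.18 ± 0.31 from 0.5 to 1 h. It was 0.056 ± 0.052 from 1 to 4 h, 0.079 ± 0.039 from 4 to 8 h and 0.037 ± 0.039 from 8 to 12 h. On the log2 scale 23.6% of the 12 h change had been reached by 0.5 h and 71.9% by 1 h, then 79.4% by 4 h and 93.4% by 8 h. These percentages share the 0 h and 12 h arrays.

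After 1 h the order of the means was 1, 4, 8 and 12 h, but no neighbours in that order differed beyond their spread. The step from 1 to 4 h was 0.17 (95% interval -0.16 to 0.50, adjusted p = 0.628 in limma), that from 4 to 8 h 0.32 (-0.014 to 0.65, adjusted p = 0.331) and that from 8 to 12 h 0.15 (-0.18 to 0.48, adjusted p = 0.914). The intervals leave room for a further rise of up to 1.41-fold, 1.57-fold and 1.39-fold in these steps. Over the steps, 10.6%, 3.31% and 0.00% of probe sets were called. In the last of them limma called 0 probe sets, and 1608 had an unadjusted p under 0.05.

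Over longer spans the slow part of the rise was larger. From 1 to 12 h CYP26A1 went up by 0.63 ± 0.16 (1.55-fold, adjusted p = 0.0302 in limma), a comparison in which 4.23% of probe sets were called, 1.81% as higher. That call was lost without 1 h replicate 1 or 2 and without any 1 of the 12 h arrays (adjusted p of up to 0.122), and when only the 6 arrays were fitted (0.0657). From 1 to 8 h the difference was 0.49 (95% interval 0.16 to 0.82, adjusted p = 0.0768) and from 4 to 12 h 0.47 (0.14 to 0.80, adjusted p = 0.0827), and neither passed. These comparisons called 6.95% and 8.09% of probe sets. With the replicate number as a block both passed in limma (adjusted p = 0.0097 and 0.0115). Deviations of same-numbered arrays correlated over 0.1 in all 3 pairs for 1 and 8 h (0.473, 0.298 and 0.251) but not for 4 and 12 h (0.166, -0.0474 and 0.181). The 8 h difference from 1 h passed without 1 h replicate 3 or 8 h replicate 1 (adjusted p down to 0.0475).

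**Figure D2:**
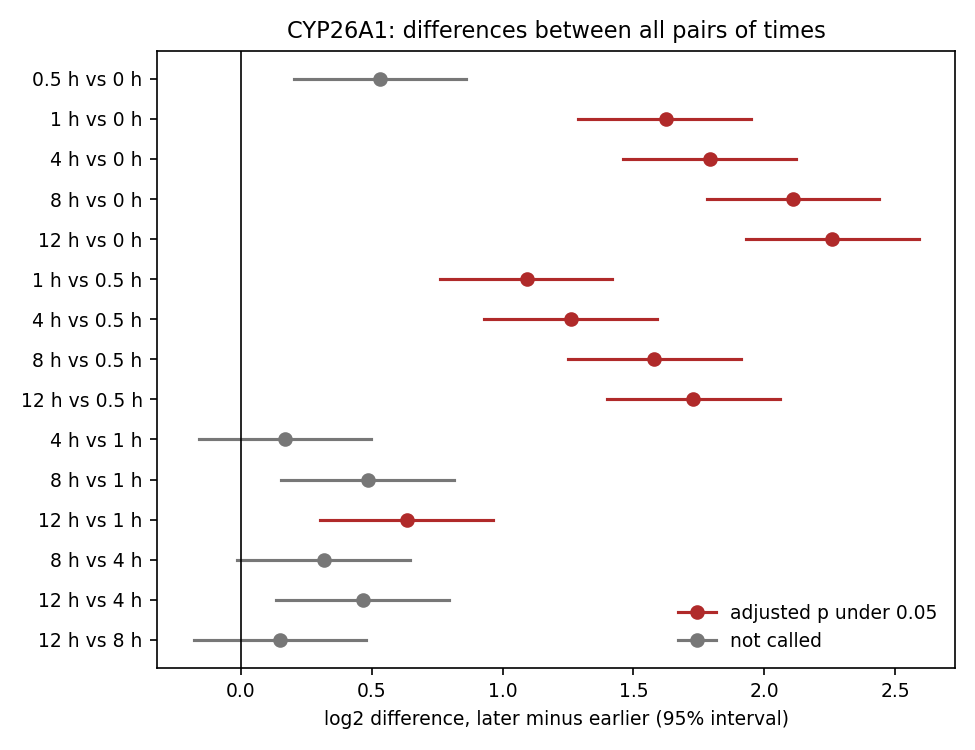
Log2 differences in CYP26A1 between all pairs of times, later minus earlier (x axis), with 95% intervals from the model fitted to the 18 arrays without a replicate term; red marks an adjusted p under 0.05. Differences from 0 h or 0.5 h to 1 h and later were all called, while after 1 h this model called only that from 1 to 12 h (0.63); with a replicate block those from 1 to 8 h and from 4 to 12 h passed too.

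CYP26A1 moved up among all probe sets as the course went on. Ranked by the size of the rise from 0 h, it was number 239 of 27558 at 0.5 h and 83 at 1 h, then 36 by 4 h, 8 by 8 h and 5 by 12 h. To ask which of the larger rises exceeded it, the log2 ratio of every probe set to CYP26A1 within the same array was tested. At 1 h, 82 probe sets had a larger rise and 44 of them, 0.160% of 27557, passed. By 4 h it was 35 and 11 (0.0399%), and by 8 h 7 and 2 (0.00726%). By 12 h the 4 with a larger rise were DHRS3, TTPA (probe set 15279078), TAGLN and the unnamed probe set 15350995. The 2 that passed were DHRS3 and the unnamed one (log2 excess 0.68, adjusted p = 0.0149 in limma). TTPA, TAGLN and the unnamed probe set are named here because of their values. All these ratios share the measurement error of the CYP26A1 probe set. The ratio test called 99.0% of probe sets in either direction at 1 h and 99.9% at 12 h. Adjusted and unadjusted p were therefore nearly the same, and these calls are hardly corrected for the number of tests.

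Among the measured genes of retinoid metabolism, DHRS3 was the close companion of CYP26A1. DHRS3 is the reductase that returns retinaldehyde to retinol, so it too lowers the supply of retinoic acid. Its 0 h arrays read 7.82, 7.91 and 7.87, its 1 h arrays 8.97, 8.87 and 8.71 and its 12 h arrays 10.90, 11.18 and 10.99. Both later groups lay above all 0 h arrays, as did those of 5.98% of probe sets at 1 h and 12.1% at 12 h. DHRS3 was 1.98-fold higher at 1 h (adjusted p = 0.00136 in limma) and 8.91-fold higher after 12 h (log2 difference 3.16 ± 0.14, adjusted p = 1.15e-08).

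The time courses of the 2 genes differed in shape. At 1 h the change of DHRS3 was 0.64 ± 0.22 smaller than that of CYP26A1 on the log2 scale (difference -0.64, 95% interval -1.10 to -0.18, adjusted p = 0.00904 in limma). That call was lost without 1 h replicate 3 (adjusted p = 0.0682). At 8 h the change of DHRS3 was 0.75 larger (adjusted p = 0.003) and at 12 h 0.90 larger (95% interval 0.44 to 1.36, adjusted p = 0.00062). Between 1 and 12 h DHRS3 gained 1.54 ± 0.22 more than CYP26A1 (adjusted p = 0.00011).

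Within arrays, the log2 ratio of DHRS3 to CYP26A1 went from -0.59, -0.51 and -0.97 at 0 h to -0.97, -1.31 and -1.73 at 1 h and then to 0.21, 0.25 and 0.16 at 12 h. The ratio was thus lowest at 1 h and highest at 12 h. The highest 1 h value equalled the lowest 0 h value to 2 decimals. In the ratio test 99.0% of probe sets were called in either direction at 1 h and 99.9% at 12 h, since nearly all changed less than CYP26A1, so that adjusted and unadjusted p against 0 h are nearly the same. The share was 99.3% for 4 h and 99.8% for 8 h. It was 3.13% from 1 to 4 h and 74.4% from 1 to 12 h. From 1 to 4 h DHRS3 gained 1.05 more than CYP26A1 (adjusted p = 0.00895), a call lost without 1 h replicate 3 (difference 0.857, adjusted p = 0.051). At 4 h against 0 h the 2 changes did not differ by the test (0.41, 95% interval -0.051 to 0.87, adjusted p = 0.0787); without 4 h replicate 3 the adjusted p was 0.0376, and a fit blocked on replicate number gave 0.0113.

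**Figure D3:**
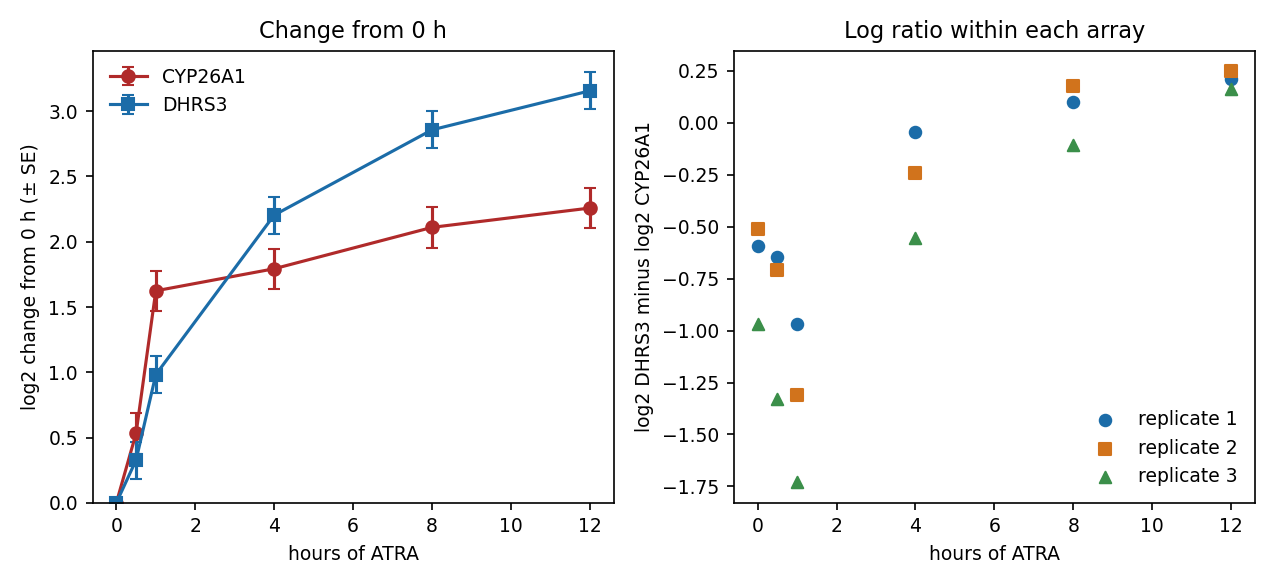
Left, log2 change from 0 h (y axis, ± SE) against hours of ATRA for CYP26A1 and DHRS3; right, log2 DHRS3 minus log2 CYP26A1 on each array, by replicate. CYP26A1 was ahead at 1 h (1.62 against 0.98) and DHRS3 at 12 h (3.16 against 2.26).

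The other measured genes of retinoid metabolism moved little beside these 2 genes. Of 28 gene symbols listed for making, storing or reducing retinoids, 18 were measured. Only 8 of these 18 had a mean at 0 h above the highest array median. ALDH1A1, ALDH1A2 and ALDH1A3, which make retinoic acid from retinaldehyde, had no probe set matched under their symbols, so this step was not covered. Among the 18, DHRS3 was the sole member to rise at any time (from 1 h on), and 1 member fell at 4 h. The list's median at 12 h was 0.076, beside -0.0067 over all probe sets, and its share called was 5.56% against a background of 2.64%. At 1 h that share was 5.56% (background 0.766%), at 4 h 11.1% (12.9%) and at 8 h 5.56% (6.10%). The member that fell was RDH11, a retinal reductase of the endoplasmic reticulum, whose arrays went from 8.69, 8.41 and 8.46 at 0 h to 8.06, 7.62 and 7.46 at 4 h. It dropped 1.75-fold there (log2 change -0.81 ± 0.17, adjusted p = 0.00406 in limma) and stood at 1.16 of its starting level after 12 h (adjusted p = 0.653). RDH10, which makes retinaldehyde from retinol, stood at 0.766 of its starting level after 12 h (adjusted p = 0.265), and LRAT, which stores retinol as esters, passed at none of the 5 times. The mean of LRAT at 0 h was 3.93, below every array's median.

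Of 13 measured genes for retinoid uptake and binding, 1 rose and 1 fell at 4 h, 2 fell at 8 h and 1 fell at 12 h. At 0 h, 6 of the 13 were above the highest array median. The share called was 15.4% at 4 h beside 12.9% of all probe sets, 15.4% at 8 h beside 6.10%, and 7.69% at 12 h beside 2.64%. STRA6, the cell surface receptor that takes up retinol from its plasma carrier, went from 8.01, 8.07 and 8.19 at 0 h to 7.48, 7.43 and 7.42 at 12 h. The fall was 1.57-fold (-0.65 ± 0.10, adjusted p = 0.0028 in limma). It was also lower at 8 h (-0.39, adjusted p = 0.031), a call lost without any 1 of the 0 h arrays or 8 h replicate 2 or 3 (up to 0.125). LRP2, megalin, the endocytic receptor of the proximal tubule that recovers filtered retinol-binding protein among many ligands, was lower at 4 h (-0.41, adjusted p = 0.0117) and 8 h (-0.45, 0.013). Its 4 h call was lost without 0 h replicate 2 or 4 h replicate 3 (up to 0.0544), and its 8 h call without 0 h replicate 2 or 3 or 8 h replicate 3 (up to 0.0689).

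RBP4, the plasma carrier of retinol, rose 1.66-fold at 4 h (0.73 ± 0.19, adjusted p = 0.0201 in limma). Its arrays read 10.54, 10.34 and 10.35 at 0 h and 10.81, 11.22 and 11.37 at 4 h, all above 0 h, as for 13.8% of probe sets. The call was lost without replicate 2 or 3 of either time (up to 0.108). CRABP2, which carries retinoic acid to its receptors, stood at 0.905 of its starting level after 12 h (adjusted p = 0.832) and its 5 later groups all overlapped with 0 h.

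The receptors changed far less than CYP26A1. RARA, the receptor found in most tissues, rose 1.40-fold at 4 h (0.49 ± 0.09, adjusted p = 0.00191 in limma), from 7.64, 7.67 and 7.75 to 8.07, 8.25 and 8.19. Its 8 h rise of 0.33 (adjusted p = 0.0426) was lost without any 1 of the 0 h arrays or 8 h replicate 1 or 3 (up to 0.137). RARB, itself a retinoic acid target in many cells, stood at 0.847 of its starting level after 12 h (adjusted p = 0.641), and RXRA at 0.991 (0.989). The mean of RXRA before treatment was 5.27, below every array's median. RARG had no probe set under its symbol.

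Of 12 receptors and coregulators measured, 1 rose and 2 fell at 4 h (25% of the list, background 12.9%). At 8 h 2 rose (16.7%, background 6.10%) and at 12 h 1 rose (8.33%, background 2.64%). The coactivators of the p160 family went different ways. NCOA2 fell 1.70-fold at 4 h (-0.77 ± 0.13, adjusted p = 0.00109 in limma), and NCOA1 was 0.43 lower there on the log2 scale (change -0.43, adjusted p = 0.0133), a call lost without 0 h replicate 3 or 4 h replicate 2 (up to 0.0653). NCOA3 was 1.64-fold higher at 8 h (adjusted p = 0.0161) and 1.66-fold higher after 12 h (0.0249). Both NCOA3 calls were lost without 0 h replicate 2 or 3, that at 8 h also without 8 h replicate 2 and that at 12 h also without any 1 of the 12 h arrays (up to 0.118).

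Over the 3 retinoid lists together, 43 genes were measured, 24 of them above the highest array median at 0 h. At 0.5 h limma called 0 of them, with 2 at an unadjusted p under 0.05. The number called was 1 at 1 h (DHRS3, background 0.766%), 7 at 4 h (3 higher and 4 lower; 16.3% beside 12.9%), 5 at 8 h (3 higher and 2 lower; 11.6% beside 6.10%) and 3 at 12 h (2 higher and 1 lower; 6.98% beside 2.64%). The 8 h count was 1 to 5 in fits without 1 array, and lower by over 1.5 times without any 1 of the 0 h arrays or 8 h replicate 2 or 3.

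**Figure D4:**
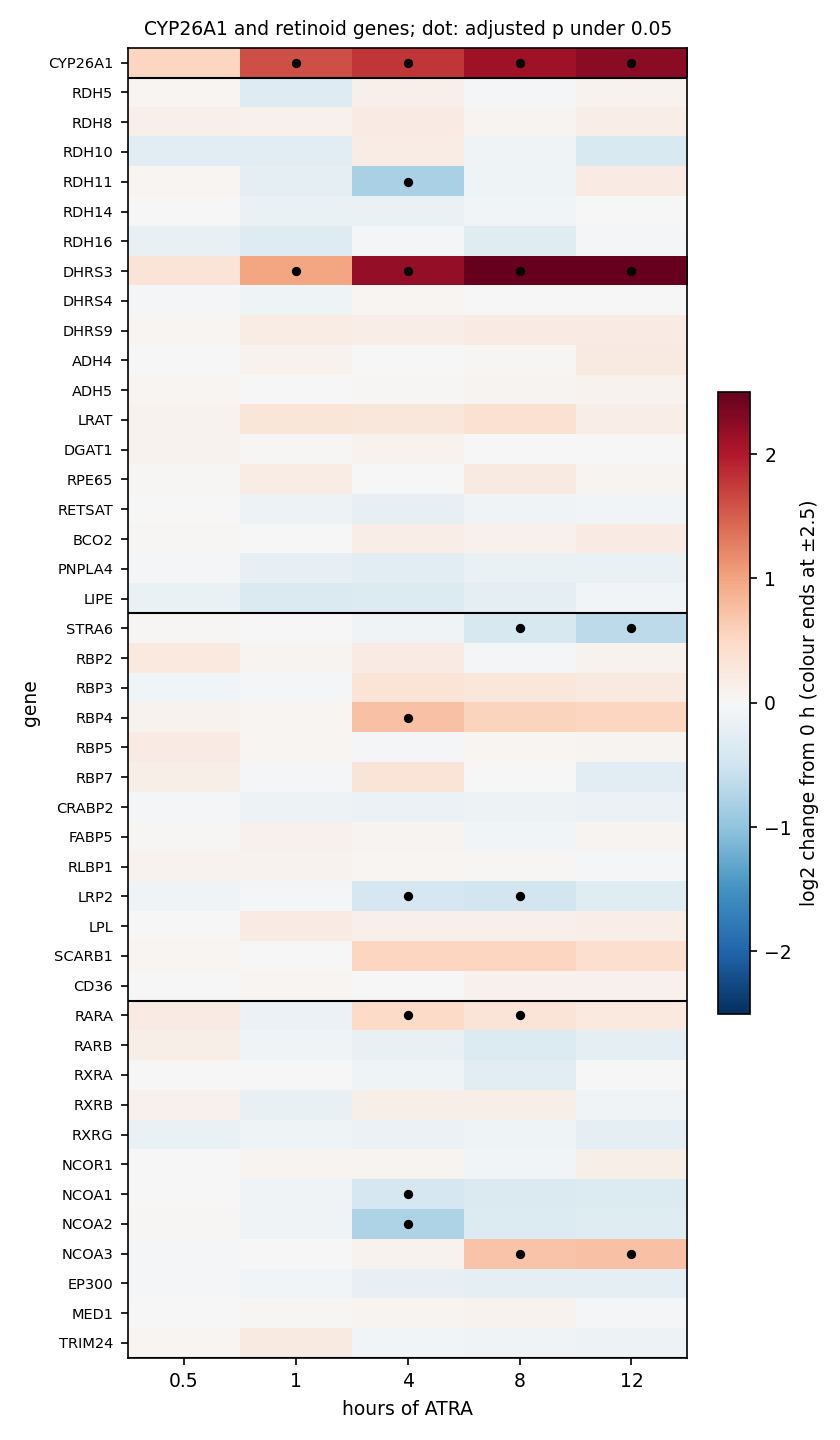
Log2 change from 0 h (colour) at each later time (columns) for CYP26A1 and 43 genes of retinoid metabolism, uptake and binding, and receptors and coregulators (rows, lists divided by lines); dots mark an adjusted p under 0.05. CYP26A1 and DHRS3 were called from 1 h to 12 h, and no other row has a dot before 4 h.

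Genes that other cell types raise in response to retinoic acid gave a mixed picture. Of 27 measured, 3 rose at 0.5 h (11.1%, background 0.232%), and 6 rose at 1 h and none fell (22.2%, background 0.766%). At 4 h 7 rose and 2 fell (33.3%, background 12.9%), and at 8 h 6 rose and 2 fell (29.6%, background 6.10%). At 12 h 5 rose and 2 fell (25.9%, background 2.64%). The list's medians at 1 and 12 h were near 0, at 0.071 and 0.0045. The list was chosen with earlier results of these data known, and its counts are not independent evidence.

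ELF3, an epithelial transcription factor, was up 3.06-fold already at 0.5 h (adjusted p = 0.00139 in limma) and still 2.68-fold after 12 h (0.00164). BHLHE40, a transcriptional repressor, had reached 2.06-fold at 0.5 h (adjusted p = 0.0102, up to 0.0817 without 0 h replicate 2 or 0.5 h replicate 1) and was 2.37-fold higher after 12 h (0.00112). The antiproliferative gene BTG2 and the interferon response factor IRF1 were up 3.71-fold and 2.74-fold at 1 h (adjusted p = 5.79e-05 and 4.26e-05). BTG2 had already passed at 0.5 h (2.63-fold, adjusted p = 0.00269), and IRF1 had not (1.58-fold, 0.107). At 12 h neither passed: BTG2 was at 0.749 of its 0 h level (0.353) and IRF1 at 1.23 (0.364). PLAT, the tissue plasminogen activator, was highest at 4 h, at 10.3-fold (adjusted p = 1.69e-06), and 4.69-fold higher after 12 h (0.00021). TGM2, a transglutaminase often induced by retinoids, was at 1.01 at 12 h (adjusted p = 0.976). HOXA5 was lower at 4, 8 and 12 h (log2 changes -1.07, -0.526 and -0.5, adjusted p = 4.43e-05, 0.015 and 0.0357 in limma). PDK4 was lower at 4 h alone (-1.15, adjusted p = 0.00499). HOXA5 and PDK4 were left out of the alternative fits.

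No other cytochrome P450 gene measured here passed as higher at more than 1 time, but only 5 of the 19 measured were above the highest array median at 0 h. Of 19, limma called 0 at 0.5 h, 1 h and 12 h, with 0, 1 and 5 at an unadjusted p under 0.05. At 4 h 1 rose and 2 fell (15.8%, background 12.9%) and at 8 h 2 fell (10.5%, background 6.10%). CYP24A1, which inactivates vitamin D hormone, was 1.65-fold higher at 4 h (adjusted p = 0.00413); its mean at 0 h was 2.64, where the lowest array lower quartile was 3.73. CYP7A1 and CYP39A1, hydroxylases of bile acid synthesis, were lower at 4 h (-0.74 and -0.55, adjusted p = 0.00576 and 0.0466) and 8 h (-0.62 and -0.71, 0.0313 and 0.0219). CYP7A1 was dim, with arrays of 3.55 to 3.96 at 0 h and 2.96 to 3.09 at 4 h, so the size of its fall is uncertain. The 8 h call on CYP7A1 was lost without 0 h replicate 1 or 3 or 8 h replicate 2 or 3 (up to 0.127). Those on CYP39A1 were lost without 0 h replicate 1 or 2, without replicate 2 or 3 of the later time and, at 4 h, without 0 h replicate 3 (up to 0.231).

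P450 enzymes need heme and an electron donor. Of 14 genes listed for these functions 9 were measured, and limma called 0 of them at 0.5, 1 and 12 h, with 0, 0 and 2 at an unadjusted p under 0.05. At 4 h UROS, an enzyme of heme synthesis, was 1.28-fold higher (adjusted p = 0.0332) and HMOX2, which degrades heme, 1.30-fold lower (0.0388). These calls made up 22.2% of the list, beside 12.9% of all probe sets. UROS was also 1.32-fold higher at 8 h (0.0315), the only call there (11.1%, background 6.10%). The UROS calls were lost without 0 h replicate 1 or 2 (at 8 h also replicate 3), 4 h replicate 3 or 8 h replicate 2 or 3 (up to 0.173). HMOX2 was lost without any 1 of the 0 h arrays or 4 h replicate 2 or 3 (up to 0.147). ALAS1, the first enzyme of heme synthesis, stood at 1.12 of its starting level after 12 h (adjusted p = 0.564).

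The genes nearest to CYP26A1 on its chromosome were followed as well. In the RefSeq annotation of Sscrofa11.1, 7 of the 5 nearest genes on each side had a probe set, and 2 of them were called against 0 h, both at 4 h alone, where 12.9% of probe sets were called. HHEX, a homeobox gene on one side of it, was 1.78-fold higher at 4 h (0.83 ± 0.21, adjusted p = 0.0133 in limma) and RBP4, the fifth gene on the other side, rose at 4 h as given above. By 12 h HHEX was 1.25-fold higher (adjusted p = 0.545), and its 4 h call was lost without 0 h replicate 1 or 2 or 4 h replicate 2 or 3 (up to 0.0612). LOC100739552, the immediate neighbour, was at 1.19 at 12 h (adjusted p = 0.678), PDE6C at 1.24 (0.0767), MYOF at 0.975 (0.93), KIF11 at 1.62 (0.7) and CEP55 at 1.58 (0.442). Pearson's r with CYP26A1 over the 18 arrays was 0.773 for PDE6C, 0.621 for RBP4, 0.609 for HHEX, 0.328 for CEP55, 0.125 for LOC100739552, 0.0637 for KIF11 and -0.273 for MYOF. These values are a description, since all genes share the arrays. The 3 arrays of PDE6C lay above all 0 h arrays at 1 and 12 h, as did those of 5.98% and 12.1% of probe sets. PDE6C was called at no time against 0 h. The tables give LOC100739552 no other name, and whether it belongs to the CYP26 family was not tested. The arrays give no build, so no position is stated.

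The likeness of other probe sets to CYP26A1 was measured as Pearson's r over the 18 arrays, among 13322 probe sets with 1 gene symbol. The arrays share the time course, so r is a description. The median r was -0.0091, 37 probe sets were at 0.8 or above and 64 at -0.8 or below. The 10 most alike represented 9 genes. Both probe sets of PFKFB3, which makes an activator of glycolysis, were among them (r = 0.928 and 0.911). The others were SH3BP5, a mitochondrial JNK binding protein (0.916), DHRS3 (0.907), the actin-binding TAGLN (0.897), PRKAB1, a regulatory subunit of AMP-activated kinase (0.883), the purine receptor P2RY1 (0.876), the ornithine carrier SLC25A15 (0.874), the ubiquitin ligase MARCH3 (0.873) and KRT19, a simple epithelial keratin (0.871).

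Likeness in shape did not mean likeness in size. PFKFB3 was 1.39-fold and 1.49-fold higher at 12 h on its 2 probe sets (adjusted p = 0.0243 and 0.0212 in limma), and SH3BP5 was 2.00-fold higher (0.000137), beside 4.78-fold for CYP26A1. The 12 h call on the first PFKFB3 probe set was lost without any 1 of the 6 arrays compared, and that on the second without 0 h replicate 1 or 2 or 12 h replicate 2 or 3 (up to 0.136). With r over the 6 time means 3 of the 10 (both PFKFB3 probe sets and P2RY1) remained among the most alike, and with Spearman's rho over the arrays 4 did (SH3BP5, DHRS3, SLC25A15 and KRT19). The least alike were LIMK2, a kinase that stabilises actin filaments (r = -0.923), the zinc finger factor VEZF1 (-0.899) and AP3D1, an adaptor subunit of vesicle transport (-0.885). LIMK2 was 0.67 lower at 12 h (log2 change -0.67, adjusted p = 0.000612), and AP3D1 passed at none of the 5 times (-0.26 at 12 h, adjusted p = 0.0754).

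**Figure D5:**
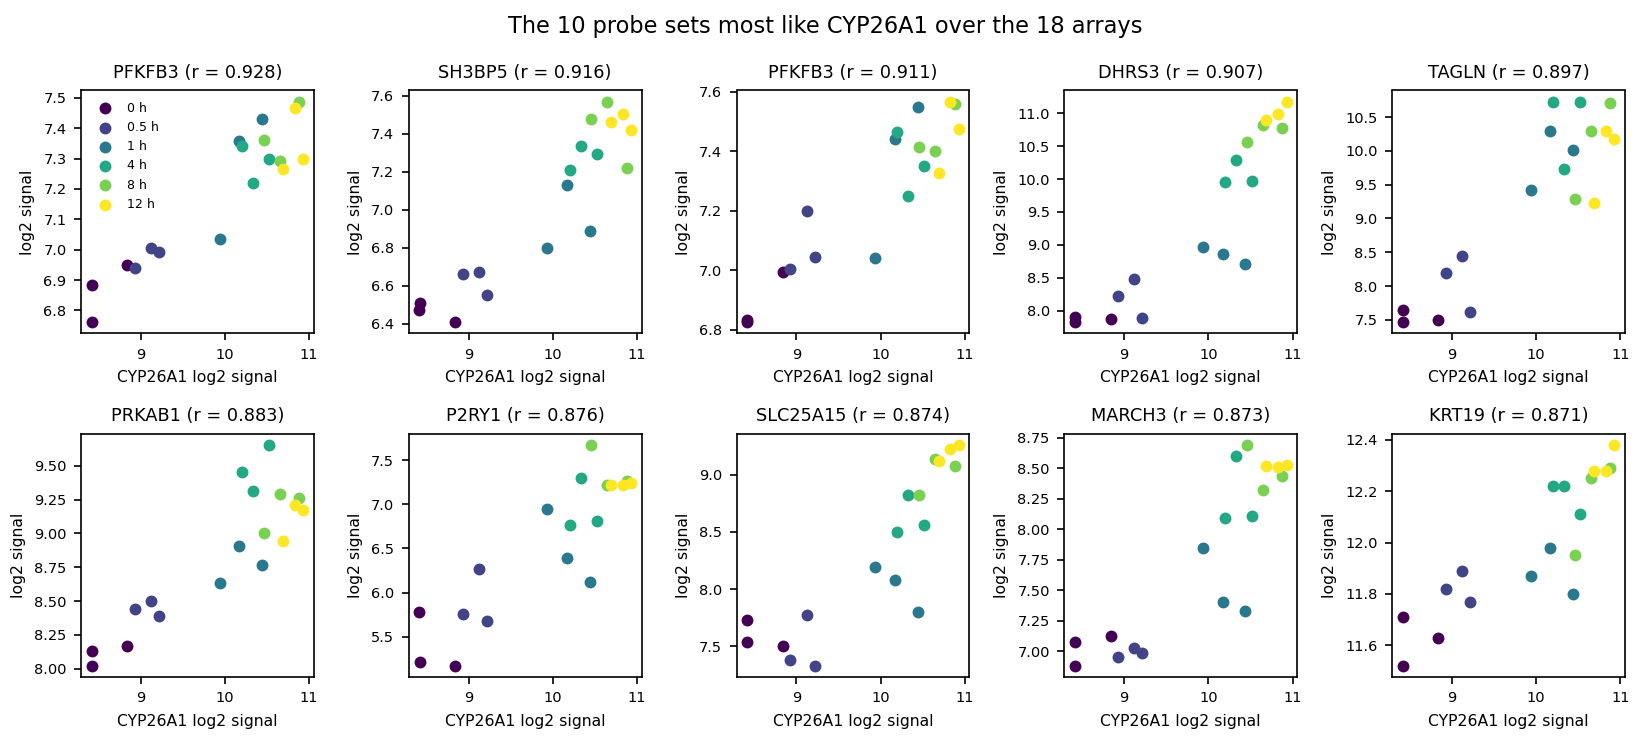
Log2 signal of each of the 10 probe sets most like CYP26A1 (y axes) against the log2 signal of CYP26A1 (x axes); each point is 1 of 18 arrays, coloured by hours of ATRA. Values of r run from 0.928 for PFKFB3 to 0.871 for KRT19, and the 6 arrays of 0 and 0.5 h are the leftmost in every panel.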

How the data were processed

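Total RNA was labelled and hybridized to Affymetrix porcine arrays, per the labels' protocols. The authors deposited 1 log2 value per probe set and array. The submitters' processing notes name Transcriptome Analysis Console 2.0.0.9, and the sources used here do not say how probes were summarized or normalized. The log2 values entered every fit unfiltered and with no offset. Of 27558 probe sets, 13323 had 1 gene symbol, 357 several and 13878 none; 12925 were found by Entrez identifier in RefSeq. A gene was represented by its probe set with the highest mean.

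A model with 1 mean per time was fitted to all 18 arrays in limma 3.58.1 (R 4.3.3; 12 residual and 3.34 prior degrees of freedom). Tests were two-sided, adjusted by Benjamini-Hochberg over all probe sets of a comparison, and called under 0.05. SE and intervals (95%) come from the model. The number of arrays limits the precision (median SE 0.149). Labels call the replicates biological; whether cultures were handled separately is not stated. The pipeline was tested on simulated data.

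CYP26A1, the lists and the comparison genes were chosen with earlier results of these data known. Genes named are CYP26A1, DHRS3, STRA6, RARA, RARB, RARG, RXRA, CRABP2, CYP26B1 and CYP26C1 whatever their values, up to 6 called members per list by largest change, the measured genes among 5 neighbours on each side, and the 10 most and 3 least alike probe sets; other genes named were chosen after their values were seen. Alternatives tried are listed with their effects in the closing section. Promoter and protein sequences were not used here.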

Additional observations from a re-analysis of the deposited data

How the results depend on the processing

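The rises of CYP26A1 against 0 h at 1, 4, 8 and 12 h passed in limma under quantile normalization, median centring, an intensity-trended robust prior, a fit to only the 6 arrays compared, a filter on mean signal and each array left out. An exact two-sided permutation test of 3 against 3 arrays gave p = 0.1 for these differences (1.62, 1.79, 2.11 and 2.26), the smallest it can give. With only the 6 arrays the differences of 1.09 from 0.5 to 1 h and 0.634 from 1 to 12 h missed the threshold (adjusted p = 0.0586 and 0.0657). With probe sets at or above the median signal, those of 0.486 from 1 to 8 h and 0.465 from 4 to 12 h passed (0.0355 and 0.0388), as did the former with centring (0.533, adjusted p = 0.0442). Without 1 array, CYP26A1 differed by 0.363 to 0.613 from 1 to 8 h and by 0.512 to 0.762 from 1 to 12 h. DHRS3 minus CYP26A1 was -0.344 to 0.0132 at 0.5 h (reversed without 0.5 h replicate 3), -0.825 to -0.445 at 1 h, 0.272 to 0.547 at 4 h, -0.655 to -0.241 from 0.5 to 1 h and 0.857 to 1.24 from 1 to 4 h. The cause was not tested.

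Same-numbered arrays correlated in their deviations by -0.0474 to 0.507, with 39 of 45 pairs over 0.1, and 13 of 18 arrays correlated best with their own number at every other time. All 3 same-number correlations were over 0.1 for 9 of 15 comparisons, and for none that includes 12 h, so the numbers were not treated as a pairing over the whole series. With the replicate number as a block, CYP26A1 at 0.5 h did not pass (adjusted p = 0.0759), the differences of 0.486 from 1 to 8 h and 0.465 from 4 to 12 h passed (0.0097 and 0.0115), and so did DHRS3 minus CYP26A1 at 4 h (0.411, 0.0113) and from 0.5 to 1 h (-0.437, 0.00808). The block called 322 probe sets at 1 h, 3191 at 8 h, 1943 at 12 h, 248 from 0.5 to 1 h and 2178 from 4 to 8 h, and 5 retinoid genes at 12 h.

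Fits to only the 6 arrays called 1378 probe sets at 4 h, 229 at 8 h, 67 from 0.5 to 1 h, 585 from 1 to 4 h and 0 from 4 to 8 h, with 3 retinoid genes at 4 h and 1 at 8 h. The signal filter called 1250 at 12 h, 1484 from 4 to 8 h and 3 from 8 to 12 h, and 5 retinoid genes at 12 h. Without 1 array the counts were 2113 to 4644 at 4 h, 703 to 1825 at 8 h, 234 to 425 at 12 h, 37 to 79 from 0.5 to 1 h, 1607 to 3816 from 1 to 4 h and 200 to 2243 from 4 to 8 h, with 1 to 5 retinoid genes at 8 h. Of the 10 most alike probe sets, 3 were shared with r over time means, 4 with Spearman's rho and 7 with the replicate number removed. Over 81 other named values, 841 of 969 alternatives kept direction and call, 128 lost the call and 0 reversed. With 1 CYP26A1 probe set, no other could be tried.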
